A study of Mus musculus with 40 samples.

Results

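The T cell receptor is built from an alpha and a beta chain, each with a variable part joined to a constant part, and it signals through the CD3 chains that come with it to the cell surface. The 10 genes described here are the 4 signalling chains Cd3d, Cd3e, Cd3g and Cd247, the constant parts Trac, Trbc1 and Trbc2 of the receptor chains, and the coreceptors Cd4, Cd8a and Cd8b1. They were chosen by name from the expression table, with earlier results of these data known, and are 10 of its 21347 genes.

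The receptor recognises peptides held by molecules of the major histocompatibility complex. CD4 marks helper T cells and binds class II molecules, while CD8, a pair of chains encoded by Cd8a and Cd8b1, marks cytotoxic T cells and binds class I molecules. The chains of CD3 carry the motifs that Lck, a kinase held by the coreceptors, phosphorylates once the receptor is bound. These genes are usual markers of T cells, and carcinoma cells are not known to carry the receptor on their surface.

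The study cultured 4T1, a mouse mammary carcinoma line from a BALB/c tumour, on tissue culture polystyrene that was left uncoated or carried a coat, applied at 250 µg/ml, of fibronectin, vitronectin, collagen I or collagen IV. Carcinoma cells were seeded at 10000 per cm2 and received interleukin 2 at 30 U/mL, either alone or together with 80000 C57Bl6 splenic T cells per cm2, for 24 h. The mouse strains of tumour line and T cells therefore differ. How the T cells were isolated, and whether each experiment used separate animals, is not given in the sources used here. Floating and trypsinised cells were pooled before RNA was taken, so a co-culture library is a mixture of both cell types. Of the 40 libraries, 22 hold 4T1 alone (uncoated 5, collagen I 4, collagen IV 4, fibronectin 5, vitronectin 4) and 18 hold co-cultures (4, 3, 4, 4 and 3 in the same order).

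Where 5 values of 1 experiment follow each other below, they stand in the order uncoated plastic, both collagens (I, then IV), fibronectin, vitronectin. The libraries come from 5 experiments, which the labels call biological replicates. Co-cultures number 2 in experiment 1 (uncoated and fibronectin), 1 in experiment 3 (collagen IV) and 5 in each of experiments 2, 4 and 5. The depth, as the sum of the reads recovered from the values, was 18.95 to 47.73 M reads per library, except 239.13 M in collagen IV co-culture replicate 5. Values are reads per megaread of a scaled library size, written here as per M. On that scale 3 reads, the limit that a count of 0 allows, are 0.0124 to 0.158 per M.

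By the RefSeq annotation of GRCm38.p6, the mm10 build, Cd3g (chromosome 9, 44969572 to 44980431, minus strand), Cd3d (44981769 to 44987052, plus strand) and Cd3e (44998735 to 45009663, minus strand) lie side by side. Cd3g and Cd3d face away from each other, with starts 1355 bases apart in GENCODE M21. Cd247 lies on chromosome 1 (165779952 to 165871153). Trac is on chromosome 14 (54220521 to 54224198), and Trbc1 (41538219 to 41539665), Trbc2 (41546730 to 41548181), Cd8b1 (71322788 to 71337492), Cd8a (71373427 to 71379171) and Cd4 (124864693 to 124888247) are on chromosome 6. Reads were counted per gene, and which exons entered is not given in the sources used here.

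The beta constant genes are near copies, which bears on how far their values can be told apart, so their coding stretches are shown from base 260 to base 518, counted from the first coding base of the constant part in GENCODE M21 transcripts. Capitals mark bases that differ between both genes.
Trbc1: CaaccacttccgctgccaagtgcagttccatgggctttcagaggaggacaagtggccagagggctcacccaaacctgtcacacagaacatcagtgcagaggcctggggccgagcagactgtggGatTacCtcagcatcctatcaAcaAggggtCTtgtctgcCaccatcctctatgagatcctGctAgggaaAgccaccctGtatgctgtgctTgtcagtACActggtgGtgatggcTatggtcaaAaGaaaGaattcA
Trbc2: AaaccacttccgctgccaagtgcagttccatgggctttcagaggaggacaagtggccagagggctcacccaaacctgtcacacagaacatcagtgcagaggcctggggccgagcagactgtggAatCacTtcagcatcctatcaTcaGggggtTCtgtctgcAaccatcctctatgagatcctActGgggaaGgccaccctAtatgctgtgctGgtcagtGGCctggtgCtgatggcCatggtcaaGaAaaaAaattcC
The 518 coding bases were 95.6% identical, with 23 differing bases. The first 259 bases were the same in both genes, the first exon of 375 bases held a single difference (C260A, Trbc1 base first), and the other 22 lay in the 143 coding bases after it. Of 663 windows of 75 bases in the Trbc1 transcript, the length of a read, 233 (35.1%) also stood in Trbc2, and those 233 were 37.7% of the 618 windows of Trbc2. Reads from the shared stretch cannot be assigned to 1 gene by sequence, and how the authors' counting treated them is not given, so the split between Trbc1 and Trbc2 is uncertain.

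Cd3g and Cd3d face away from each other on the chromosome, so the 250 bases before each start are shown (RefSeq, GRCm38.p6, chr9:44980432-44980681, minus strand, and chr9:44981536-44981785, plus strand). The start used for Cd3d is that of the table's transcript, which lies inside the span given above. Capitals mark matches on either strand to the Ets core AGGAAG or to the E-box CAGGTG, which do not overlap each other here.
Cd3g: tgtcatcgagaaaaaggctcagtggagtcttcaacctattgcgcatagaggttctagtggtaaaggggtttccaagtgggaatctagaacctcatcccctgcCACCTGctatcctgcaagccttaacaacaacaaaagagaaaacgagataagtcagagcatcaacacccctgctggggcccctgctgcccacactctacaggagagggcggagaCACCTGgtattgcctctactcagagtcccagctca
Cd3d: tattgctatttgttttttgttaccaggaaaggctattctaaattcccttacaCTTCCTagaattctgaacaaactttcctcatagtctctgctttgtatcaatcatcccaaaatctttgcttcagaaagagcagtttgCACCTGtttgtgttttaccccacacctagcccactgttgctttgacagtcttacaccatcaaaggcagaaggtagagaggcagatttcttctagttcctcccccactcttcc
A promoter was in the reference table for 5 of the 10 genes (Cd3d, Cd3e, Cd3g, Cd247 and Cd8a). AGGAAG stood in 3 of the 5 (Cd3d, Cd3e and Cd247), against 29.5% of 32851 mouse promoters of the same length. CAGGTG also stood in 3 of the 5 (Cd3d, Cd3g and Cd247), against 17.2%. The Runx site TGTGGT (14% of all promoters) and the TATA box TATAAA (12.4%) stood in none, and the GC box GGGCGG (32.7%) stood only in Cd3g among the 5. A match describes letters, not a bound site.

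All 10 genes were higher in co-culture than in 4T1 alone, and for 9 of them the lowest co-culture lay above the highest library of 4T1 alone. That separation was found in 1.17% of the 14701 genes tested, and the exception among the 10 was Trac. Each gene was higher in 18 of 18 pairs of wells from 1 experiment and substrate, a pattern of 2.12% of all genes. In the model of group means, 10 of 10 genes passed as higher at an adjusted p under 0.05 for the mean effect over substrates (limma, Benjamini-Hochberg over all genes), beside 13.1% of all genes. With the experiment as a block, again 10 of 10 passed, beside 22.4%. All 10 had passed the filter on low values, 9 of them through the co-cultures alone and Trac also in 4T1 alone. The median difference of the 10 was 2.58 on the log2(value + 1) scale, against -0.01 over all genes tested.

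**Figure D1:**
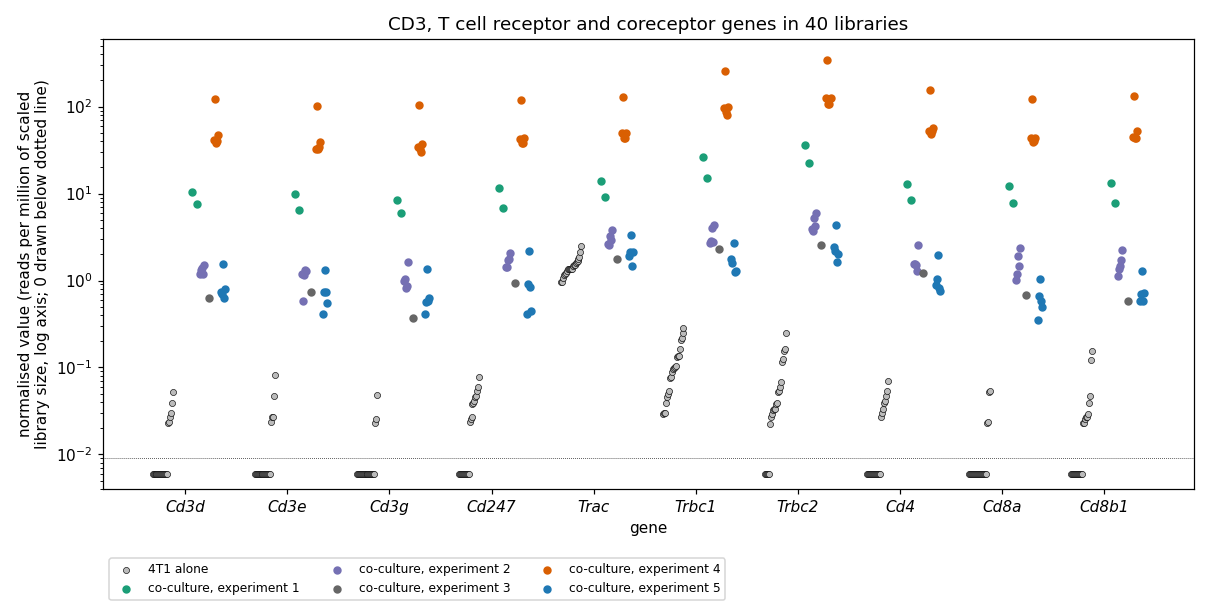
Value of each gene in every library on a log axis, per M of scaled library size; grey points are 4T1 alone, coloured points are co-cultures by experiment, and values of 0 are drawn below the dotted line. Co-cultures lie above 4T1 alone for 9 genes, Trac overlaps, and experiment 4 is highest throughout.

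Among the CD3 chains, Cd3d, the delta chain, had no read in 16 of the 22 libraries of 4T1 alone and 7 reads in all 22 together. In co-culture Cd3d measured 7.63 (uncoated) and 10.5 (fibronectin) per M in experiment 1, and 0.632 in the collagen IV co-culture of experiment 3. In experiment 2, Cd3d was 1.18, 1.18, 1.33, 1.38 and 1.5 per M. These 5 wells lay close together and well above every well of 4T1 alone, of which the highest was 0.0518.

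In experiment 4, Cd3d was 40.4, 41.1, 123.2, 38.1 and 46.9 per M. In experiment 5 it was 0.626, 0.738, 0.702, 1.5 and 0.793. The wells of experiment 4 stood far above all others, and no other experiment overlapped with it. The log2 difference of Cd3d between co-culture and 4T1 alone, as a mean over substrates, was 2.56 ± 0.50 (SE, limma, adjusted p = 0.00193).

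Cd3e, the epsilon chain that pairs with both Cd3d and Cd3g products, had 7 reads over all libraries of 4T1 alone. It ranged from 0.417 to 102.2 per M in co-culture, with a median of 1.31. In experiment 4 Cd3e was 33.9, 32.6, 102.2, 32.7 and 38.8, and in experiment 5 it was 0.737, 0.417, 0.739, 1.32 and 0.555, so the well on collagen IV again stood apart in the former and fibronectin was highest in the latter. Cd3g, the gamma chain, had 3 reads in 4T1 alone and ranged from 0.369 to 103.8 in co-culture, with a median of 1.21. Cd247, the zeta chain, which holds several signalling motifs and is also used by natural killer cells, had 17 reads in 4T1 alone and ranged from 0.417 to 119.2, with a median of 1.93. In experiment 4 Cd247 was 37.9, 42.9, 119.2, 38.3 and 43.4, and in experiment 5 it was 0.847, 0.417, 0.913, 2.21 and 0.45. Their log2 differences were 2.40 ± 0.48 for Cd3e, 2.36 ± 0.49 for Cd3g and 2.6 ± 0.48 for Cd247, and the 3 adjusted p-values (limma) were 0.00239, 0.00293 and 0.00132. These 4 differences lay within 1 SE of each other.

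Of the receptor chains, Trbc2 was 22.7 (uncoated) and 36.3 (fibronectin) per M in experiment 1 and 2.58 in experiment 3. In experiment 2 it was 4.24, 3.87, 3.68, 5.21 and 6.03. In experiment 4 it was 105.9, 124.9, 338.8, 107.7 and 123.9, and in experiment 5 it was 1.62, 2.41, 2.19, 4.33 and 2.01. As for the CD3 chains, experiment 4 was highest, experiment 1 second, and collagen IV of experiment 4 stood above the other 4 wells of that experiment.

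In 4T1 alone, Trbc2 had 45 reads over 22 libraries and was at 0 in 5 of them. Trbc1 had 83 reads and at least 1 read in every library, up to 0.281 per M. In experiment 4 Trbc1 was 80.3, 95.3, 258.8, 85.7 and 97.9, in experiment 2 it was 2.77, 2.69, 2.84, 4.04 and 4.35, and in experiment 5 it was 1.25, 1.77, 1.58, 2.69 and 1.30. Each of these lay above every library of 4T1 alone. The log2 differences were 3.73 ± 0.54 for Trbc2 (limma, adjusted p = 0.000139) and 3.29 ± 0.54 for Trbc1 (adjusted p = 0.000413), the largest of the 10 genes on the log2(value + 1) scale. That order depends on the scale: as a ratio of the mean over co-cultures to the mean over 4T1 alone, Trbc2 was 847.5-fold and Trbc1 344.4-fold higher, below Cd8a (2564.4-fold) and Cd3d (2007.0-fold), which had 6 and 7 reads in 4T1 alone.

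Trac, the constant part of the alpha chain, differed from the other 9 genes in 4T1 alone. It had 24 to 79 reads in each of the 22 libraries, 0.97 to 2.47 per M with a median of 1.36, while the other 9 genes together had 1 to 28 reads per library. The mean of Trac in 4T1 alone was 1.17, 1.51, 1.34, 1.82 and 1.30 per M in experiments 1 to 5, and the ranges of the experiments overlapped. Experiment 4, whose co-cultures held most T cell transcript, also had the highest mean of Trac without T cells. The CD3 and coreceptor genes together had 1, 33, 21, 2 and 13 reads in 4T1 alone in experiments 1 to 5. A relation between these was not tested. In co-culture, Trac ranged from 1.47 (uncoated, experiment 5) to 128.1 (collagen IV, experiment 4), and its log2 difference was 1.84 ± 0.43 (limma, adjusted p = 0.00673), the smallest of the 10 genes, as was its ratio of means (13.8-fold).

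Relative to Trbc2 in the same co-culture, Trac was 0.378 to 0.41 in experiment 4 and 0.386 to 0.399 in experiment 1, but 0.615 to 0.695 in experiment 2, 0.694 in experiment 3 and 0.776 to 1.07 in experiment 5. After the level of the paired well of 4T1 alone was taken off, the ratio was 0.382 ± 0.0101 (SD, n = 5) in experiment 4, 0.318 ± 0.0876 (n = 5) in experiment 2, 0.344 ± 0.0951 (n = 5) in experiment 5, 0.349 and 0.356 in the wells of experiment 1, and 0.123 in the well of experiment 3. The ratios of experiments 2, 4 and 5 thus overlapped once the level without T cells was removed. This relation was not tested.

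**Figure D2:**
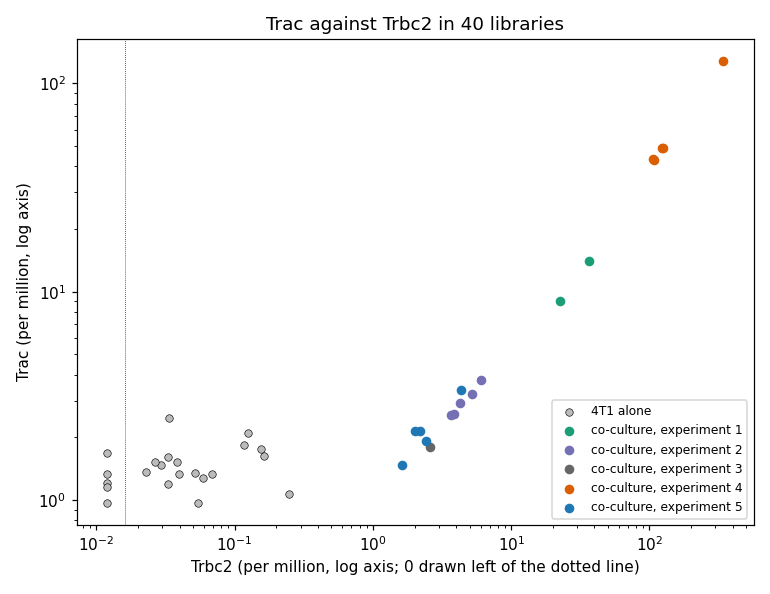
Trac against Trbc2 in 40 libraries, both per M on log axes; grey points are 4T1 alone, coloured points are co-cultures by experiment, and Trbc2 values of 0 are drawn left of the dotted line. Trac lies between 0.97 and 2.47 in 4T1 alone at any Trbc2 value, and follows Trbc2 in the co-cultures of experiments 1 and 4.

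Among the coreceptors, Cd4 was 8.46 (uncoated) and 12.9 (fibronectin) per M in experiment 1 and 1.21 in experiment 3. In experiment 2 Cd4 was 1.28, 1.56, 1.5, 1.5 and 2.58. In experiment 4 it was 51.9, 52.0, 155.8, 48.0 and 57.4, and in experiment 5 it was 0.81, 0.899, 1.03, 1.94 and 0.767. Cd4 had 12 reads over the 22 libraries of 4T1 alone, so each co-culture exceeded all of these.

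Cd8a was 7.80 (uncoated) and 12.3 (fibronectin) per M in experiment 1 and 0.685 in experiment 3. In experiment 2 Cd8a was 1.46, 1.01, 1.20, 1.93 and 2.34. In experiment 4 it was 40, 43.1, 122.2, 39.0 and 43.4, and in experiment 5 it was 0.589, 0.353, 0.665, 1.05 and 0.502. Cd8a had 6 reads in 4T1 alone. Its partner Cd8b1, which pairs with Cd8a on conventional cytotoxic T cells, had 18 reads there and ranged from 0.578 to 133.4 in co-culture. In experiment 4 Cd8b1 was 43.3, 45.0, 133.4, 43.8 and 51.8, and in experiment 5 it was 0.589, 0.578, 0.694, 1.29 and 0.714, the same highest wells as for Cd4 and Cd8a.

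The log2 differences of the coreceptors were 2.79 ± 0.51 for Cd4, 2.55 ± 0.50 for Cd8a and 2.61 ± 0.51 for Cd8b1, with adjusted p-values (limma) of 0.00129, 0.00218 and 0.00208. In these mixed samples, fewer T cells and less RNA per T cell cannot be told apart.

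Levels can be compared between genes only per length. Divided by the exon length of each gene in GENCODE M21, mean levels in the 5 co-cultures of experiment 4 were highest for Trbc2 (231.5 ± 144.8 per M and kb, SD), followed by Trbc1 (165.0 ± 101.3) and Trac (66.9 ± 39.3). Then came Cd8b1 (42.8 ± 26.5), Cd3d (31.9 ± 20.2), Cd4 (18.1 ± 11.5), Cd8a (15.8 ± 9.95), Cd3g (14.6 ± 9.63), Cd3e (11.8 ± 7.45) and Cd247 (10.6 ± 6.61). The ranges of neighbours in this order overlapped, but all genes share the same wells, so ranges do not compare genes within a well. In each of these wells Trbc2 lay above Trbc1, and Trbc1 above Trac. The order describes length-scaled levels, and the exon lengths join all annotated transcripts of a gene.

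T cell receptor transcript differed between experiments, while no difference between coats passed a test. Coats were tested against a spread that holds this gap between experiments, so that outcome does not show that coats are alike. The sum of the 9 genes other than Trac was 88.6 and 141.3 per M in experiment 1, 15 to 24.1 in experiment 2, 10.1 in experiment 3, 464.0 to 1457.3 in experiment 4 and 7.66 to 17.7 in experiment 5. The mean sum in experiment 4 was 5.98-fold that of experiment 1, 38.2-fold that of experiment 2 and 68.5-fold that of experiment 5. For single genes, experiment 4 was from 28.3-fold (Trac) to 91.1-fold (Cd8a) the mean of experiment 5. A model with a T cell effect for each experiment was fitted. The effect differed between experiments for 10 of 10 genes (limma, F test, adjusted p from 3.32e-17 to 5.64e-15), beside 45.1% of all genes. The error there is the spread between wells within experiments, and wells of an experiment do not repeat that experiment. With edgeR on the recovered reads, which tests ratios rather than differences of log2(value + 1), 6 of 10 passed (Cd247, Trac, Trbc1, Trbc2, Cd4 and Cd8b1), beside 41.6%. The adjusted p (edgeR) was 0.0897 for Cd3d, 0.0927 for Cd3e, 0.409 for Cd3g and 0.124 for Cd8a. In that order these genes had 7, 7, 3 and 6 reads over all libraries of 4T1 alone, so their ratios rest on few reads. Their mean co-culture levels in experiment 4 were 65.9, 63.7, 66.6 and 91.1 times those in experiment 5.

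Within that model, all 10 genes passed as higher in experiment 1 (beside 3.17% of genes called), in experiment 2 (1.35%) and in experiment 4 (64.3%). In experiment 5, 9 of 10 passed (4.37%), and Trac did not, at 0.46 ± 0.17 (limma, adjusted p = 0.119). With a pseudocount of 2 in place of 1, 7 of 10 passed in experiment 2 and 3 of 10 in experiment 5, with no share over all genes given here. In experiment 3, which has 1 co-culture, 2 of 10 passed (0.646%): Trbc1 at 1.44 ± 0.33 and Trbc2 at 1.62 ± 0.34 (limma, adjusted p of 0.0348 and 0.0177). Its error comes from the spread in the other experiments, and the single co-culture is assumed to vary like them. Cd3d, for example, differed by 3.3 ± 0.26 in experiment 1, 1.19 ± 0.17 in experiment 2, 5.71 ± 0.17 in experiment 4 and 0.88 ± 0.17 in experiment 5. The call in experiment 3 rests on single wells: without collagen IV alone replicate 3 it was 0 of 10, without collagen IV alone replicate 4 or fibronectin alone replicate 3 it was 1, and without collagen IV co-culture replicate 4 it was 8 of 10.

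**Figure D3:**
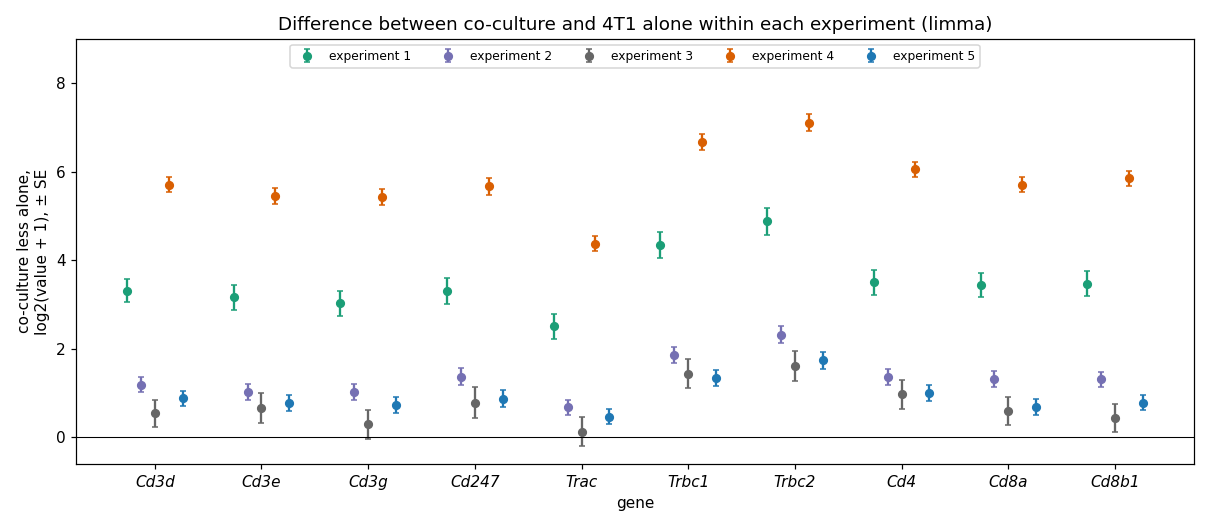
Log2 difference between co-culture and 4T1 alone on the log2(value + 1) scale for each gene in each of 5 experiments, with bars of ± 1 SE from the model. Points of experiment 4 lie highest for each gene (7.11 for Trbc2), then experiment 1, with experiments 2, 3 and 5 lowest.

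Markers of other cells moved with the experiment too. The 8 B cell markers summed to 45.8 to 141.1 per M in experiment 4, 9.30 and 14.9 in experiment 1 and 0.948 to 3.28 in the other co-cultures, against 0.0592 to 0.336 in 4T1 alone; of these, Ighm held a mean of 63.9 in experiment 4, while Ms4a1 held 0.235. In experiment 3, 6 of the 8 were at 0, among them Ms4a1, Cd79b, Ighd, Pax5 and Cr2. The 5 natural killer markers in the table summed to 27.5 to 72.2 in experiment 4 and 5.53 to 11.8 in the other co-cultures. In 4T1 alone they summed to 4.64 to 7.64, and Eomes (mean 5.65) made up most of it. Their means in experiment 4 were 27.3 for Klrd1, 7.23 for Eomes, 4.41 for Klrk1, 0.348 for Tyrobp and 0.251 for Fcer1g. The 7 erythroid and platelet markers summed to 7.43 to 46.0 in experiment 4 and to at most 1.28 in the other co-cultures, and the 5 neutrophil markers to 2.37 to 7.51 and at most 3.42. Of the 5 markers of CD8-bearing dendritic cells, which also carry Cd8a, Cd24a is high in 4T1 itself (mean 333.0 alone, 280.2 in experiment 4). Irf8 had means of 7.18 in 4T1 alone and 9.61 in experiment 4. Means of Xcr1, Itgax and Flt3 were 0.0504, 0.0413 and 0.057 in 4T1 alone, and 0.162, 0.343 and 0.0952 in experiment 4. The 5 macrophage and monocyte markers summed to 9.90 to 16.7 in co-cultures and 8.39 to 14.6 in 4T1 alone. Cd14 and Cd68 made up most of that sum, with means of 7.9 and 3.05 in 4T1 alone and 7.28 and 3.17 in experiment 4. The other 3 were higher in experiment 4 than in 4T1 alone: Lyz2 (2.38 against 0.0325), Mpeg1 (0.596 against 0.0528) and Csf1r (0.847 against 0.559). The 7 carcinoma markers, such as Krt8 and Epcam, summed to 1085.3 to 1692.3 in experiment 4, below the 1823.5 to 2632.8 of 4T1 alone. They summed to 1664.0 to 2069.5 in experiment 5, which overlapped both, and to 2055.8 to 2451.3 in experiments 1, 2 and 3. The part of these cells in the results was not tested.

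The library names also carry a tag (none, R2 or R3) whose meaning the labels do not give. Both co-cultures of experiment 1 and 4 of 5 in experiment 4 carry none, and these summed to 88.6 to 1457.3 per M. In experiment 4 the uncoated co-culture, tagged R2, reached 464.0, close to the 465.8 of the untagged fibronectin well. In experiment 5 the only untagged co-culture, on fibronectin, held 17.7, and the 4 tagged ones 7.66 to 9.09. Tag, experiment and arm are not balanced, and the part of the tag was not tested.

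Between substrates, no difference passed. In co-culture, 0 of 40 pairs of gene and coat passed against uncoated plastic (limma), beside 0.0051% of all pairs, and 0 of 40 had an unadjusted p under 0.05. In 4T1 alone it was also 0 of 40, beside 0.0255%. All genes but Trac had few or no reads there, so their pairs could hardly pass. An F test over the 5 substrates in co-culture passed for 0 of 10 genes, beside 0.129%, again with 0 at an unadjusted p under 0.05, and edgeR called 0 in each of these. The T cell effect on a coat differed from that on uncoated plastic for 0 of 40 pairs, beside 0%.

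The errors of these differences were wide. Against uncoated plastic, Trbc2 in co-culture differed by 0.49 ± 1.20 on fibronectin, 0.02 ± 1.30 on vitronectin, -0.09 ± 1.30 on collagen I and -0.23 ± 1.20 on collagen IV (log2 scale, SE). Cd3d differed by 0.27 ± 1.10, 0.01 ± 1.19, -0.14 ± 1.19 and -0.16 ± 1.10 in the same order of coats. Differences of this size were not detectable against the spread between libraries of a group. These group means do not hold the same experiments: experiment 1 is in uncoated plastic and fibronectin, and experiment 3 in collagen IV.

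Between wells of the same experiment, Trbc2 was higher than on uncoated plastic in 4 of 4 pairs on fibronectin, in 3 of 3 on vitronectin, and in 2 of 3 on either collagen. The mean difference within experiments was 0.49 ± 0.44 (log2 scale, SD, n = 4) on fibronectin, 0.28 ± 0.12 (n = 3) on vitronectin, 0.17 ± 0.25 (n = 3) on collagen I and 0.60 ± 0.95 (n = 3) on collagen IV, so on both collagens its sign was opposite to that of the group means. For Cd3d it was 0.27 ± 0.32, 0.19 ± 0.04, 0.04 ± 0.05 and 0.58 ± 0.87 in that order. Of the 10 genes, 6 were higher in every pair on vitronectin, 3 on collagen IV, 2 on fibronectin and 1 on collagen I. The share over all genes was not computed for these counts. The 10 genes also move together (median r of 0.941 between them after the mean of each experiment was taken off), so they are not separate observations. The differences and counts within experiments were added after the data were seen and were not tested, since 3 or 4 pairs cannot reach an exact p under 0.05.

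The substrate with the highest level changed from experiment to experiment. In experiment 4, collagen IV was highest for all 10 genes, at 2.77 (Trac) to 3.11 (Cd3g) times the median of the other 4 wells. In experiment 5, fibronectin was highest for all 10, at 1.65 (Trac) to 3.40 (Cd247) times the median of the others, and fibronectin also exceeded uncoated plastic in experiment 1. In experiment 2, vitronectin was highest for 9 genes, with Cd3e highest on uncoated plastic by 1.31 against 1.30 per M. Within an experiment each substrate has 1 well, so these orders have no replicate.

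**Figure D4:**
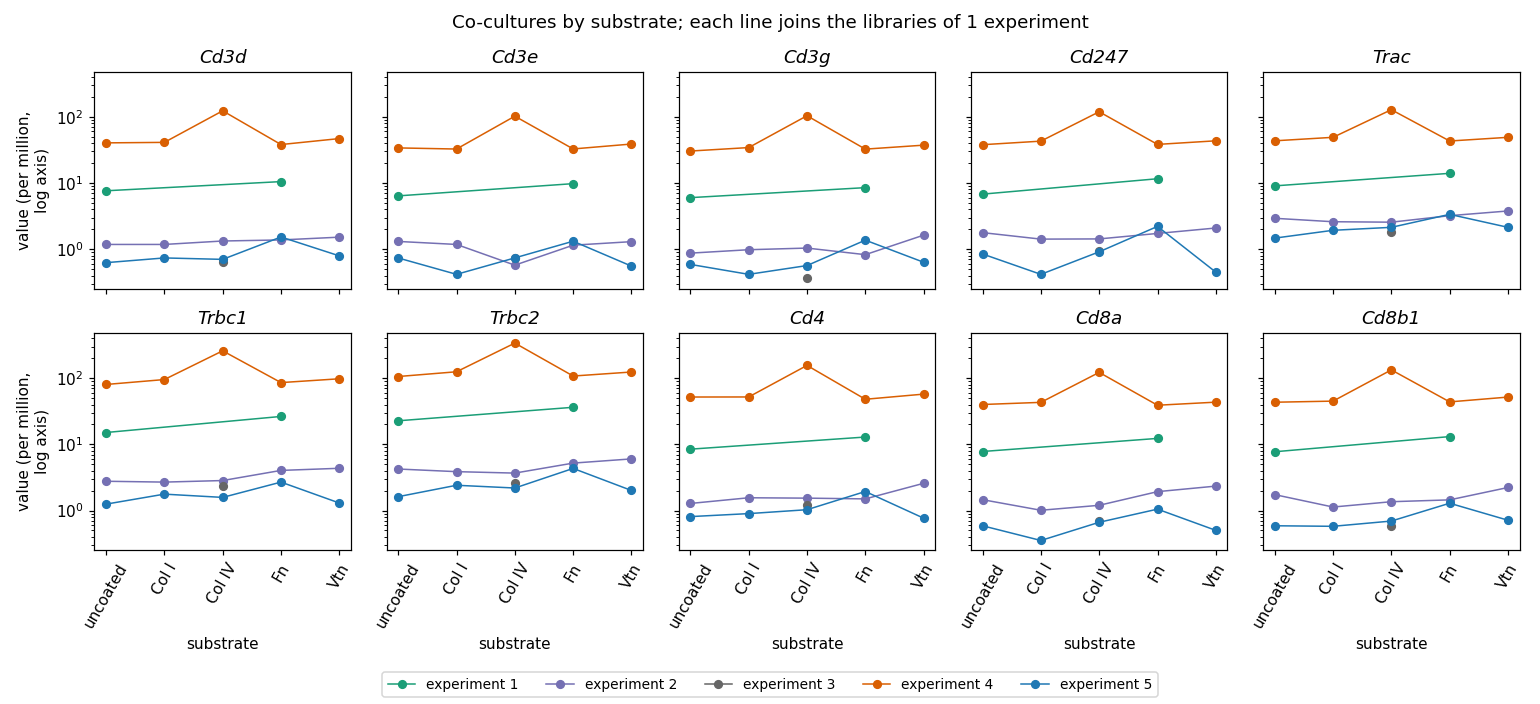
Value of each gene in the co-cultures on 5 substrates (Col I, collagen I; Col IV, collagen IV; Fn, fibronectin; Vtn, vitronectin), per M on a log axis; each line joins the wells of 1 experiment. Collagen IV peaks in experiment 4 (Cd3d 123.2) and fibronectin in experiment 5 (Cd3d 1.5), the lines of experiments 1 and 4 stay above the others, and those of experiments 2 and 5 cross for several genes.

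When each substrate was tested alone, the difference between co-culture and 4T1 alone passed for 0 of 50 pairs of gene and substrate (limma), beside 0% of all pairs. An unadjusted p under 0.05 was found for 10 genes on fibronectin, 9 each on vitronectin, collagen IV and uncoated plastic, and 4 on collagen I. With the experiment as a block 2 of 50 passed, beside 0.756%, namely Trbc1 (adjusted p = 0.0434) and Trbc2 (0.0355) on uncoated plastic. With edgeR on the recovered reads 22 of 50 passed, beside 0.656%, and with edgeR and the block 46 of 50, beside 5.34%.

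A ratio of 2 genes within a library compares them apart from the total of T cell RNA. The share of Cd8a in the reads of Cd8a and Cd4 was 43.0% to 45.4% in the 5 wells of experiment 4. It was 48.0% and 48.9% in experiment 1, 39.3% to 56.2% in experiment 2, 36.1% in experiment 3 and 28.2% to 42.1% in experiment 5. The low end of experiment 5 came from collagen I, with 11 reads of Cd8a and 28 of Cd4 (28.2%, exact 95% interval 15% to 44.9%). The deepest library, collagen IV of experiment 5, had 161 and 250 reads (39.2%, 34.4% to 44.1%), and collagen IV of experiment 4 had 3448 and 4394 reads (44.0%, 42.9% to 45.1%). Such intervals cover counting error only.

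As mean log2 ratios of Cd8a to Cd4, experiment 2 stood at -0.11 ± 0.40 (SD, n = 5), experiment 4 at -0.34 ± 0.06 and experiment 5 at -0.79 ± 0.35, and each of the 5 wells of experiment 5 was below each of experiment 4. The difference between experiments 4 and 5 was 0.45 (exact permutation test, two-sided, p = 0.00794, the smallest this design allows; 0.0952 after adjustment over 12 tests). Between experiments 2 and 5 it was 0.67 (exact permutation p = 0.0238, adjusted 0.0952). With 12 tests, a single p at the smallest value cannot pass 0.05 after adjustment. These tests treat the wells of an experiment as separate samples, though such wells do not repeat that experiment.

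The 3 other ratios were compared in the same way. Cd8b1 to Cd8a was 0.02 ± 0.27, 0.14 ± 0.07 and 0.32 ± 0.30 (log2, SD, n = 5) in experiments 2, 4 and 5, and Trbc1 to Trbc2 was -0.47 ± 0.10, -0.37 ± 0.03 and -0.52 ± 0.13. Cd247 to Cd3e was 0.66 ± 0.40, 0.23 ± 0.10 and 0.19 ± 0.39. Unadjusted p under 0.05 was also found for Cd247 to Cd3e between experiments 2 and 4 (exact permutation p = 0.0159) and for Trbc1 to Trbc2 between experiments 4 and 5 (exact permutation p = 0.0317), both at 0.0952 after adjustment. Altogether 0 of 12 comparisons passed, with 4 at an unadjusted p under 0.05.

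Leaving out 1 well changed that count. Without collagen I co-culture replicate 2, 3 of 12 passed: Cd8a to Cd4 between experiments 2 and 5 (0.80) and between 4 and 5 (0.45), and Cd247 to Cd3e between 2 and 4 (0.52), each at an adjusted exact permutation p of 0.0317. Without uncoated co-culture replicate 5, 2 of 12 passed, namely Cd8a to Cd4 (0.53) and Trbc1 to Trbc2 (0.19) between experiments 4 and 5, each at 0.0476. Between coats and uncoated plastic, 0 of 16 ratio comparisons passed and 0 had an unadjusted p under 0.05. There the smallest p the design allows is 0.0286, and the lowest found was 0.143 (exact permutation, two-sided; adjusted 0.686), for Cd8a to Cd4 on collagen I.

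**Figure D5:**
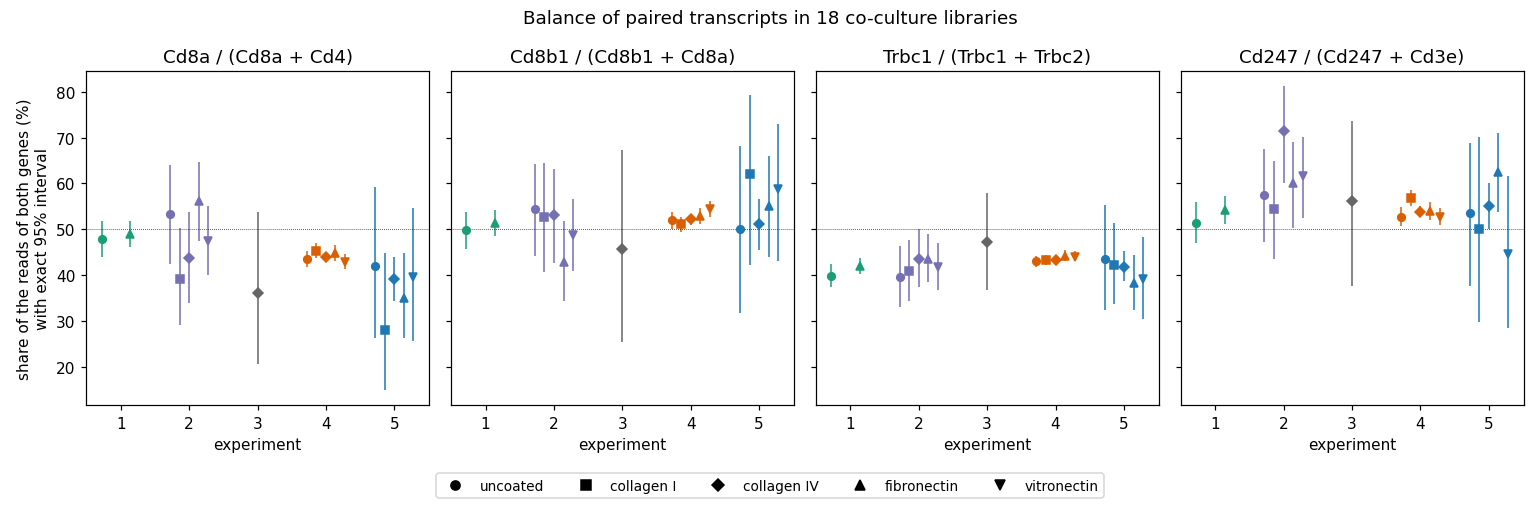
Share of 1 gene in the reads of a pair of genes for each of 18 co-cultures, in percent with the exact 95% interval, by experiment; symbols give the substrate. Cd8a makes up 43.0% to 45.4% of Cd8a and Cd4 reads in experiment 4 and 28.2% to 42.1% in experiment 5, with wider intervals where reads are few.

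Of 36 genes that act next to the receptor (kinases, adaptors and partners at the membrane), 33 passed as higher in co-culture, beside 13.1% of all genes, 0 as lower, beside 12.2%, and 3 (Plcg1, Ptpn6 and Csk) did not pass. Their median log2 difference was 1.67, against -0.01 over all genes. Among those higher in every pair, large differences were those of Ptprc, the CD45 phosphatase that keeps Lck active (4.39 ± 0.58), Grap2, an adaptor that binds SLP-76 (3.70 ± 0.54), Lat, the membrane scaffold phosphorylated by Zap70 (2.85 ± 0.51), and Rasgrp1, an exchange factor for Ras (2.85 ± 0.51). Without experiment 4, 18 of 36 passed, beside 1.92% of the 14068 genes tested there.

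Of 10 genes tied to the CD4 or CD8 lineage, 7 passed as higher and 1 as lower, beside 13.1% and 12.2% of all genes, and 2 (Zbtb7b and Eomes) did not pass. The median was 0.97. Bcl11b, a factor of T cell commitment, differed by 2.61 ± 0.51, the chromatin organiser Satb1 by 1.99 ± 0.49, Runx3, needed for the cytotoxic lineage, by 1.90 ± 0.41, Tcf7 by 1.81 ± 0.44 and the cytotoxic granule gene Nkg7 by 0.86 ± 0.24. Gata3, a factor of helper cells that mammary epithelium also expresses, was 70.1 per M in 4T1 alone and 63.2 in co-culture and fell by 0.15 on the log2 scale (limma, adjusted p = 0.0340). Of 8 genes of the gamma delta or immature receptor, 4 were in the table and 3 were tested. Trdc, the delta constant part, differed by 0.69 ± 0.20 and Dntt, which adds bases at receptor joints, by 0.71 ± 0.24, and both passed as higher, beside 13.1% of all genes, while Cd1d1 at 0.47 ± 0.18 (limma, adjusted p = 0.0514) did not. Trdc reached at most 7.23 per M in co-culture.

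Over the 18 co-cultures, genes outside the set whose log2 values lay closest to the mean of the 10 included Gimap6, Cyfip2, Lck, Tcf7, Psd4, Lef1, Aff3, Cytip and Vav1. Pearson's r was 0.9985 to 0.9991, and 0.968 to 0.985 after the mean of each experiment was taken off. These libraries share experiment and depth, and the first range mainly reflects the gap between experiments, so it describes likeness and carries no test. Tcf7 was 12.3 per M and Lck 1.76 per M in 4T1 alone, while Vav1 was 0.00867.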

How the data were processed

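RNA-seq of 40 libraries was analysed. Per the submitters' processing notes, reads were processed with STAR 2.6, featureCounts and edgeR 3.31.7 on mm10; options and annotation are not given. As deposited by the authors, each value is a signal: the reads of a gene over a scaled library size. From the smallest step of each column, 100% of values came out as whole reads (within 0.01). Cd3d stood on 2 identical lines, and 1 gene with a cell that held no number was left out.

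log2(value + 1) was fitted with limma 3.58.1 (R 4.3.3, intensity trend) on 10 group means, for genes at 1 or more in at least 3 libraries; Benjamini-Hochberg adjustment covered all 14701 genes, at 0.05. A second fit had experiment, substrate and a T cell effect per experiment. edgeR 4.0.16 and DESeq2 1.42.0 on recovered reads were alternatives. Ratios were compared by exact permutation over libraries. Scripts were tested on simulated data. P-values measure the spread between these libraries.

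Replicate numbers mark shared experiments: residuals of libraries with the same number correlated (median 0.478 over 156 pairs, against -0.131 over 562). Experiment therefore served as the block in the alternative fits that had one. The main fit on group means had no block. No pair within a group was a copy (lowest chi-square per degree of freedom 6.52).

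The 10 genes and the lists were chosen with earlier results of these data known. Genes were named by rule: all 10; from the lists, up to 5 with the largest difference among those passing and higher in every pair, and any lower; and the 10 closest in pattern. Others named from counts of 5 or fewer were chosen after their values were seen. Genes of the lists outside the table (13, such as Trgc1 and Rag1) were not analysed here, and some genes that the rule names are not reported here.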

Additional observations from a re-analysis of the deposited data

Results flagged for a closer look

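Collagen IV co-culture replicate 4 stood far from the other 3 libraries of its group for all 10 genes. It was at 123.2 per M for Cd3d (next library 1.33), 102.2 for Cd3e (0.739), 103.8 for Cd3g (1.0), 119.2 for Cd247 (1.43), 128.1 for Trac (2.56), 258.8 for Trbc1 (2.84) and 338.8 for Trbc2 (3.68). For the coreceptors it was at 155.8 for Cd4 (1.5), 122.2 for Cd8a (1.20) and 133.4 for Cd8b1 (1.36). This well belongs to experiment 4, whose other co-cultures were also high, and the other 3 libraries of its group come from experiments 2, 3 and 5. In 4T1 alone, Trbc2 in uncoated replicate 2 was at 0.155 per M, 6 reads, against 0.0395 in the next library. Of 45 sets of gene and group examined, 11 held such a library. Chance flags about 5% of independent sets, and these are not independent, since 10 of the 11 are the same library seen through genes that move together.

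The T cell effect differed between the 5 experiments for all 10 genes (limma, F test, adjusted over all genes). Its error is the spread between wells within experiments. The adjusted p was 3.32e-17 for Cd3d, 1.79e-16 for Cd3e, 1.20e-16 for Cd3g, 7.12e-16 for Cd247, 5.64e-15 for Trac, 3.39e-17 for Trbc1 and 5.40e-17 for Trbc2. It was 5.54e-17 for Cd4, 5.54e-17 for Cd8a and 3.39e-17 for Cd8b1.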

How the results depend on the processing

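The rise of the 10 genes with T cells kept its direction and passed in each of 520 values under 52 alternatives (pseudocounts of 0.5 and 2, no filter, other scalings, the replicate block, no experiment 3 or 4, edgeR, DESeq2 and each library left out), with a highest adjusted p of 0.0293 (Trac) and log2 differences of 0.81 to 11.28. That range of log2 differences mixes scales, since edgeR and DESeq2 give log2 ratios that do not add 1 to each value. Leaving out single libraries gave 10 of 10. The counts for coats in co-culture, coats in 4T1 alone, the T cell effect on coats and the F test were 0 under each alternative that gave a value. Ratios between coats, paired by experiment, could not reach 0.05 with 3 or 4 pairs. With the replicate block, 2 genes passed on uncoated plastic. Without experiment 4 this was 1 on uncoated plastic and 9 on fibronectin, and with the block as well 9 and 10. edgeR called 6 on uncoated plastic, 9 on collagen IV and 7 on fibronectin, beside 0.656% of all pairs of gene and substrate. With the block it called 9, 9, 10, 9 and 9 on uncoated plastic, collagen I, collagen IV, fibronectin and vitronectin, beside 5.34%. DESeq2 called 10, 9, 10, 10 and 10 in that order. Shares of all pairs are not given here for DESeq2 or without experiment 4, so those counts cannot be set against all genes. edgeR called 6 of 10 for the T cell effect by experiment. Signalling genes called fell from 33 to 18 without experiment 4 and to 20 with the block as well, and were 26 to 34 with 1 library left out. Of all 14068 genes tested without experiment 4, 270 were called in either direction, and 1196 with the block as well. The counts by experiment, and their alternatives, were added after the data were seen, and the alternatives stand without the share over all genes. In experiment 3 the count of 2 became 0 with pseudocount 2, 1 with quantile normalisation, 7 without experiment 4, 8 with DESeq2 and 0 to 8 with 1 library left out. In experiment 5 the count of 9 became 3 with pseudocount 2, and in experiment 2 the count of 10 became 7. Ratios differing between experiments numbered 0 to 3 with 1 library left out. The cause of these changes was not tested. Low read counts limit the ratios in experiments 2, 3 and 5.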
